A study of Saccharomyces cerevisiae with 14 samples.

Results

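TAQed strain 101 is 1 diploid yeast clone recovered after TaqI cut the genome inside living cells, and it was followed here across all chromosomes on 1 two-colour comparative genomic hybridization array. Its array was taken by the label that names the strain and is 1 of 14 arrays of the series. The array offered 59133 nuclear and 363 mitochondrial probes for use, and the starts of neighbouring nuclear probes were 194 bases apart in the median. DNA of strain 101 was labelled with Cy5 and DNA of WT14 with Cy3, so that a log2 ratio above 0 means more copies in strain 101.

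WT14 is the control strain and the parent of every strain in the series: a MATa/a diploid made by fusing the S288C-derived YPH499 with the SK1-derived S799. Strain 101 is WT14 that carried the TaqI gene, expressed it with Cu2+ and was heated at 42 °C for 30 min to activate the enzyme. The labels repeat that treatment for the WT14 sample, whereas the study's methods set WT14 apart as the control, so the treatment of the WT14 DNA is uncertain. The other arrays hold 12 further TAQed strains and WT14 against itself. All 13 TAQed strains are single clones with the same background and treatment, each on 1 array with 1 dye orientation. No p-value was therefore computed, since an exact test of 1 array against 13 cannot fall below 0.0714, and each value of strain 101 is set beside the 12 other TAQed strains and WT14.

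TaqI is a heat-tolerant restriction endonuclease that cuts the short palindrome TCGA, which occurs throughout the yeast genome. Broken ends are repaired in yeast either by end joining, in which the Ku proteins hold the ends, or by homologous recombination, in which resected ends copy a matching sequence. Repair that links the wrong partners, or that copies a donor to its telomere, changes the dose of whole arms. An array ratio reports that dose and carries no information on which ends were joined.

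Strain 101 was measured as well as most of its neighbours. Its Cy5 signal had a median of 206.5, with the background at 12, 99.8% of its probes were well above background in Cy5, and the noise between neighbouring probes was 0.12 on the log2 scale (0.11 for WT14). The array of strain 81 was dim, with a median Cy5 signal of 25. Strain 101 lay on the second of 2 slides together with 7 other TAQed strains, while WT14 and the remaining strains lay on the first. The mitochondrial probes of strain 101 had a median of -0.60, against 0.09 for WT14 and -8.56 (strain 84) to 0.80 (strain 113) in the other TAQed strains. Strain 101 was thus below every array except that of strain 84, the next above it being strain 117 with -0.27.

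The genome of strain 101 showed 1 long gain and 1 long loss. The gain covered the left part of chromosome IV over 428 kb, from chrIV:17432 to chrIV:445751 in the June 2008 yeast assembly that the array uses (sacCer2). The loss covered chromosome XIII from chrXIII:272181 to the last probe at chrXIII:924290, a length of 652 kb. Single probes rose past 0.3 at 9.07% of the genome in strain 101, against 2.72% in WT14, and fell past -0.3 at 8.71% in strain 101, against 0.515% in WT14. The gain and the loss were found under all 15 settings in which segments were recomputed.

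In the gained part of chromosome IV, 2213 probes had a median log2 ratio of 0.71 in strain 101. WT14 stood at -0.00, and the other TAQed strains ranged from -0.10 (strain 106) over a median of 0.04 to 0.10 (strain 119), so that strain 101 lay outside all of them. The 7 other strains on its own slide spanned the same range, -0.10 to 0.10. With WT14 taken as 2 copies, the ratio amounts to 3.28 copies. Of 2188 probes measured on all arrays, 2122 (97.0%) were higher in strain 101 than on every other array, a pattern held by 6.83% of all probes. The part was called from these same ratios, so this count only restates the call. Its probes are also included in the 6.83%.

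In the lost part of chromosome XIII, 3245 probes had a median of -1.08 in strain 101. WT14 stood at -0.00, and the other TAQed strains ranged from -0.02 (strain 81) over 0.00 to 0.04 (strain 119). With WT14 taken as 2 copies, strain 101 held 0.949 copies there. Of 3228 probes measured on all arrays, 3210 (99.4%) were lower in strain 101 than on every other array, against 7% of all probes. Here too the count restates the call, and its probes are included in the 7%. No other TAQed strain had a loss over this part of chromosome XIII.

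**Figure D1:**
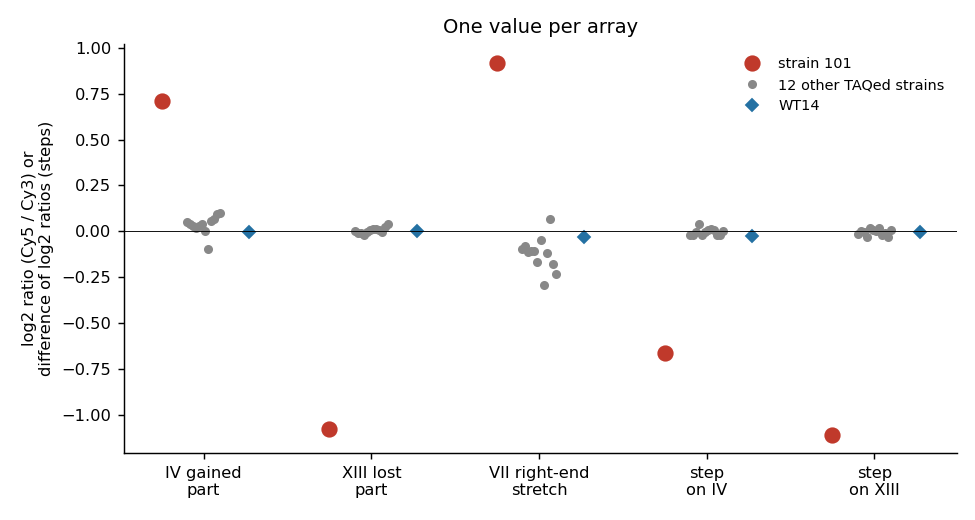
Median log2 ratio of 3 parts of the genome and the steps on chromosomes IV and XIII (median of the 20 kb to the right minus the 20 kb to the left), 1 point per array. Strain 101 (red) lies outside the 12 other TAQed strains (grey) and WT14 (blue) in all 5, at 0.71, -1.08, 0.92, -0.66 and -1.11.

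Both changes began within the distance between a pair of neighbouring probes. On chromosome IV the level dropped between the probe that ends at chrIV:445751 and the probe that starts at chrIV:446018, a gap of 266 bases. The last 5 probes of the gain read 0.89, 0.88, 0.65, 0.90 and 0.58 in strain 101, and the next 5 read 0.33, 0.17, 0.23, 0.23 and 0.39. WT14 read between -0.11 and 0.16 at the last 5 probes of the gain. Across 20 kb on each side the step was -0.66 in strain 101 (1.58-fold), against -0.02 in WT14 and -0.02 to 0.04 in the other TAQed strains. A step from 3 copies to 2 would measure 0.58. In 12 of 15 settings the boundary fell at the same probe, and in the other 3 it moved 326 bases to the left.

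The gap on chromosome IV lies within MCD1, the gene of the kleisin subunit of cohesin, which holds sister chromatids together. MCD1 had a median of 0.58 over 7 probes in strain 101, against 0.11 in WT14 and 0.08 to 0.82 in the other TAQed strains, the highest being inside a gain of chromosome IV in strain 106. On the gained side, ATP16, which encodes the delta subunit of the mitochondrial ATP synthase, stood at 0.76 in strain 101, against -0.01 in WT14. On the other side, NHP10, which encodes a subunit of the INO80 chromatin remodelling complex, stood at 0.07 in strain 101, against -0.06 in WT14. Gene names come from a later annotation (R64), and its numbering was checked against the array: gene-designed probes fell inside genes best without any shift on 15 of 16 chromosomes, 95.7% of them on chromosome IV and 96.3% on chromosome XIII. Genes of chromosome XI, where a shift of 350 bases gave the best match, were left out.

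On chromosome XIII the level dropped between chrXIII:271883 and chrXIII:272181, a gap of 297 bases. The last 5 probes before it read -0.05, 0.04, 0.01, 0.01 and -0.17 in strain 101, and the first 5 after it read -0.78, -1.09, -1.11, -1.34 and -1.499. WT14 read -0.21 to 0.27 at the first 5 after it, so that none of these 5 probes of strain 101 reached a value of WT14. The step was -1.11 in strain 101 (2.16-fold), against -0.01 in WT14 and -0.03 to 0.02 in the other TAQed strains, and the boundary fell at the same probe in all 15 settings. It lies between YMR001C-A and MIX17, close to the start of MIX17, whose product is a protein of the mitochondrial intermembrane space. MIX17 had a median of -1.10 over 4 probes in strain 101, against -0.01 in WT14. YMR001C-A stood at 0.03 in strain 101, against 0.06 in WT14, and CDC5, the polo-like kinase gene beside it, at 0.01 in strain 101, against -0.00 in WT14.

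**Figure D2:**
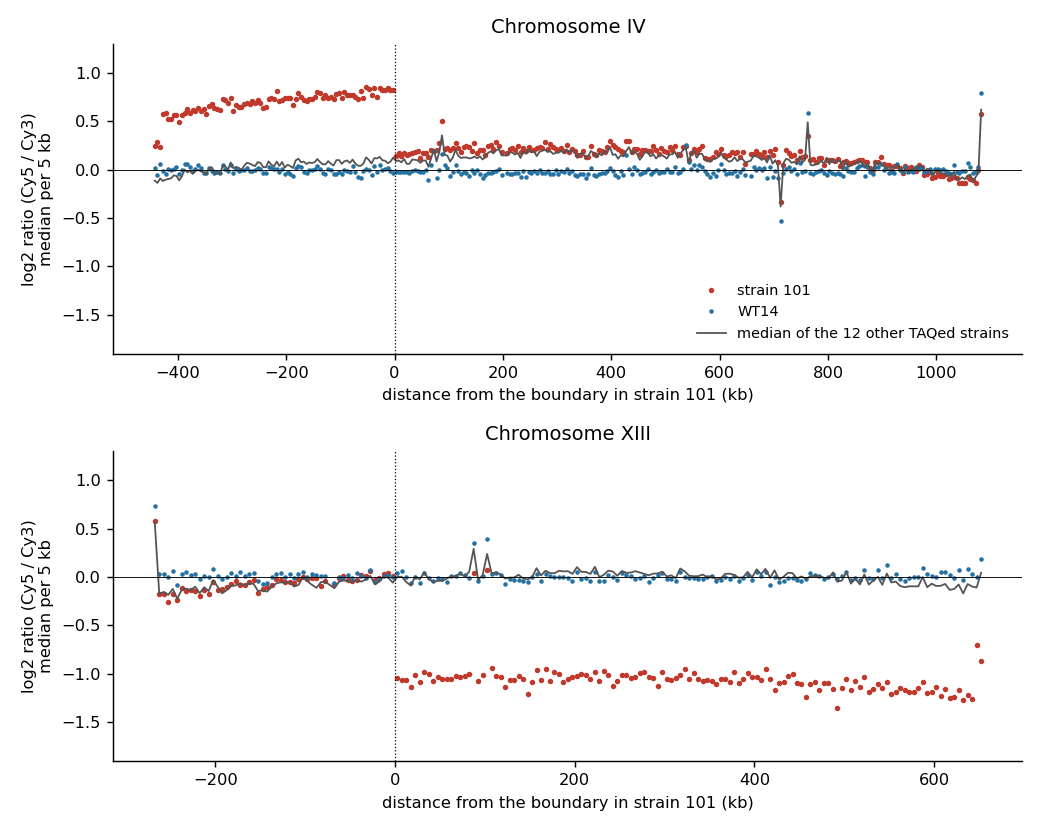
Median log2 ratio of Cy5 over Cy3 in windows of 5 kb along chromosomes IV (top) and XIII (bottom), against the distance in kb from the boundary found in strain 101, with strain 101 in red, WT14 in blue and the median of the 12 other TAQed strains as a grey line. Strain 101 leaves the other strains at 0 on both chromosomes, upward by 0.66 to the left on IV and downward by 1.11 to the right on XIII.

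The gain on chromosome IV was not flat. In windows of 50 kb it fell from 0.82 next to the boundary to 0.52 at the far left, and the segmentation divided it into 3 levels of 0.77, 0.69 and 0.58. The remainder of chromosome IV followed the same course at a lower level, from 0.20 over 3410 probes to -0.10 at the right. A similar course existed outside any called region: probes under 20 kb from a chromosome end had a median of -0.13 in strain 101, 0.04 in WT14 and -0.23 (strain 119) to 0.07 (strain 113) in the other TAQed strains, and probes over 400 kb from an end had 0.15 in strain 101, -0.01 in WT14 and 0.01 (strain 97) to 0.19 (strain 119) in the others. When the median of the other arrays was subtracted probe by probe, the windows of the gain narrowed to 0.58 to 0.72 and those of the loss to -1.12 to -1.04. The part of this course in the levels of strain 101 was not otherwise tested.

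The leftmost 25 probes of chromosome IV, before the called gain, stood at 0.24 in strain 101, against 0.02 in WT14 and -0.45 (strain 106) to 0.01 (strain 97) in the other TAQed strains. They were below the threshold of 0.3 but above all other arrays. The boundary of the call falls between THI13, a gene of thiamine precursor synthesis, and AAD4, an aryl-alcohol dehydrogenase gene. This end of chromosome IV shares near-identical genes with the right end of chromosome X. SOR2 of chromosome IV, a sorbitol dehydrogenase gene, had 0.36 in strain 101, against 0.05 in WT14, and its copy SOR1 on chromosome X had 0.33 in strain 101, against 0.02 in WT14. MPH2 of chromosome IV, a gene of a maltose permease family, had 0.20 in strain 101, against 0.01 in WT14, and MPH3 of chromosome X had 0.38 in strain 101, against 0.09 in WT14. HXT15 of chromosome IV, a hexose transporter gene, had 0.38 in strain 101, against 0.05 in WT14, and HXT16 of chromosome X had 0.23 in strain 101, against 0.30 in WT14. THI13 had 0.12 in strain 101, against -0.12 in WT14, and THI11 of chromosome X had 0.04 in strain 101, against -0.00 in WT14. AAD4 had 0.47 in strain 101, against -0.10 in WT14, and AAD10 of chromosome X had -0.09 in strain 101, against 0.06 in WT14. Of these genes of chromosome X, SOR1 and MPH3 were past 0.3 in strain 101, and AAD10, THI11 and HXT16 were not. COS5, also looked up on chromosome X, was past it with 0.44 in strain 101, against 0.21 in WT14 and -0.60 to 0.21 in the other TAQed strains. The right end of chromosome X was itself called in strain 101, at chrX:729331-745372, with 0.39 over 23 probes, against 0.11 in WT14 and -0.39 to 0.14 in the other TAQed strains. These genes were chosen after their values were seen.

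The gained and lost parts held 227 and 338 genes with a probe. All 227 genes of the gain were past 0.3, where 8.55% of 5753 genes in the genome were, and 330 of the 338 genes of the loss were past -0.3, where 6.59% of all genes were. In WT14, 3.29% of all genes were past 0.3 and 0.0869% past -0.3. These counts restate the called regions, so nothing further is read from them.

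The 8 genes of the lost part that were not past -0.3 were mostly members of repeated families. YMR045C and YMR046C belong to a Ty1 retrotransposon, a mobile element present in many near-identical copies, and so do YMR050C and YMR051C. YMR045C had 0.04 over 5 probes in strain 101, against 0.35 in WT14, and YMR050C had 0.47 over 4 probes in strain 101, against 0.49 in WT14. Both elements showed as short segments inside the loss, of -0.57 at chrXIII:356353-362137 and -0.38 at chrXIII:373453-379799, where WT14 had 0.01 and 0.25. A further 2 were transfer RNA genes with 1 probe each. The others were YMR158C-A, with 0.09 over 1 probe in strain 101, against -0.03 in WT14, and PAU19, of the seripauperin family that fills chromosome ends, with -0.20 over 2 probes in strain 101, against 0.31 in WT14. For members of repeated families the ratio sums over copies elsewhere, and their dose on chromosome XIII was not measured separately. The value of YMR158C-A rests on its 1 probe, and why it was not low was not tested.

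The counts of the following gene lists stand beside the 8.55% of all genes past 0.3 and the 6.59% past -0.3, and nothing particular to a list is read from them. Both Ku genes lay in the lost part: YKU70 had -1.24 over 9 probes in strain 101, against -0.10 in WT14 and -0.29 to -0.05 in the other TAQed strains, and YKU80 had -1.09 over 9 probes in strain 101, against -0.02 in WT14 and -0.06 to 0.14 in the others. The other 4 of 6 genes of the end-joining list were not past the threshold. Among 18 genes of homologous recombination, 2 were past -0.3 (6.59% of all genes) and 1 past 0.3 (8.55% of all genes). MRE11, a nuclease that starts resection, stood at -1.04 in strain 101, against -0.00 in WT14, and SGS1, the RecQ-type helicase, at -1.04 in strain 101, against 0.00 in WT14. RAD59, a relative of the strand-annealing gene RAD52, stood at 0.84 over 3 probes in strain 101, against 0.08 in WT14. The medians of both lists over all members were -0.07 and -0.00.

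Of 12 measured checkpoint genes, DUN1, a kinase downstream of RAD53, was gained with 0.63 in strain 101, against 0.01 in WT14. Of 8 measured cohesin genes, MCD1 was past 0.3 with 0.58 over 7 probes in strain 101, against 0.11 in WT14. The right boundary of the gain falls within MCD1, so not all of the gene lies in the gain. PDS5, a regulator of cohesin on chromosomes, was lost, with -1.001 over 17 probes in strain 101, against -0.02 in WT14. Of 11 genes of G1 cyclins and cell size, 3 were past 0.3 (8.55% of all genes) and 1 past -0.3 (6.59% of all genes). CLN1, a G1 cyclin, stood at -0.997 in strain 101, against 0.03 in WT14. MBP1, the DNA-binding part of a G1 transcription factor, stood at 0.81 in strain 101, against -0.00 in WT14. WHI4, an RNA-binding relative of the size regulator WHI3, stood at 0.48 in strain 101, against -0.07 in WT14. SWI6, the partner of MBP1, stood at 0.35 in strain 101, against -0.03 in WT14, but it lies on chromosome XII, where the other TAQed strains reached 0.83.

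Yeast carries most cytosolic ribosomal proteins as pairs of near-identical genes. Of 132 measured, 11 were past 0.3 (8.55% of all genes) and 7 past -0.3 (6.59% of all genes), of which 10 and 6 lay in the gained part of IV and the lost part of XIII. Some pairs were split between both parts. RPS16B on chromosome IV stood at 0.81 in strain 101, against 0.01 in WT14, while its partner RPS16A on chromosome XIII stood at -1.03 in strain 101, against 0.01 in WT14. Likewise RPL13A on chromosome IV stood at 0.71 in strain 101, against -0.06 in WT14. RPL13B on chromosome XIII stood at -0.98 in strain 101, against 0.04 in WT14. Other pairs lay with both genes in the gained part. RPL35A and RPL35B stood at 0.62 and 0.60 in strain 101, against -0.11 and -0.03 in WT14. RPL41A and RPL41B, with 1 probe each, stood at 0.77 and 0.88 in strain 101, against 0.05 and 0.05 in WT14. Among the remaining lists, the copper-response regulator MAC1 was past -0.3 with -1.01 in strain 101, against -0.07 in WT14. The mating-type switching gene HO, on chromosome IV, stood at 0.53 in strain 101, against -0.05 in WT14. The gene of gamma-tubulin, TUB4, stood at 0.39 in strain 101, against 0.07 in WT14, and lies on chromosome XII, where the other TAQed strains reached 0.96. None of 5 measured flocculin genes was past the threshold as a whole gene; the array measures DNA, and no transcript level was taken.

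Probes within the lost part of chromosome XIII did not fall together. The middle 80% of the probe ratios spanned 0.53 in strain 101, against 0.33 in WT14 and 0.33 to 0.52 in the other TAQed strains, the highest being the dim array of strain 81. In the gained part of chromosome IV the same span was 0.41 in strain 101, against 0.30 in WT14 and 0.32 (strain 73) to 1.24 (strain 106, whose own gain begins within it) in the other strains. In the loss, 205 of 3241 probes (6.33%) were below -1.5 in strain 101 and 12 were below -3, against none of 3243 below -1.5 in WT14.

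To set these probes apart from the level around them, the median of the other arrays was subtracted from each probe, and then the running median over 200 probes to each side. In the lost part of strain 101, 196 of 3241 probes (6.05%) then lay over 0.4 below their neighbours and 41 (1.27%) lay over 0.4 above. In the left part of the same chromosome, which kept its copies, 0 of 1279 probes departed in either direction, and in the same lost part on the WT14 array 0 of 3243 were lower and 2 higher. In the gained part of chromosome IV of strain 101, 2 of 2209 probes were lower and 9 higher. Among these parts, departing probes thus lay mostly in the lost part of XIII. They were not limited to it. Near the right end of chromosome IX, described below, 28 of 425 probes of strain 101 were lower and 5 higher. Near that of VII, 4 of 864 were lower and 24 higher. The median level of both was within the range of the other strains. WT14 has genomes of 2 different strain backgrounds while the array follows 1 reference sequence, and the part of such sequence differences was not tested.

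The direction of these departures differed among the long losses of the series. As in strain 101, low probes outnumbered high ones in the loss on chromosome IV of strain 84 (5.83% against 1.79%), on V of strain 113 (7.59% against 1.44%) and on VIII of strain 119 (8.42% against 2.22%). High probes outnumbered low ones in the loss on chromosome XIV of strain 107 (1.27% low against 3.86% high) and on V of strain 117 (0.582% against 4.44%). The loss on X of strain 117 had 2.51% low and 2.90% high. These are counts over probes of single arrays that share their reference DNA, and they were not tested against each other.

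**Figure D3:**
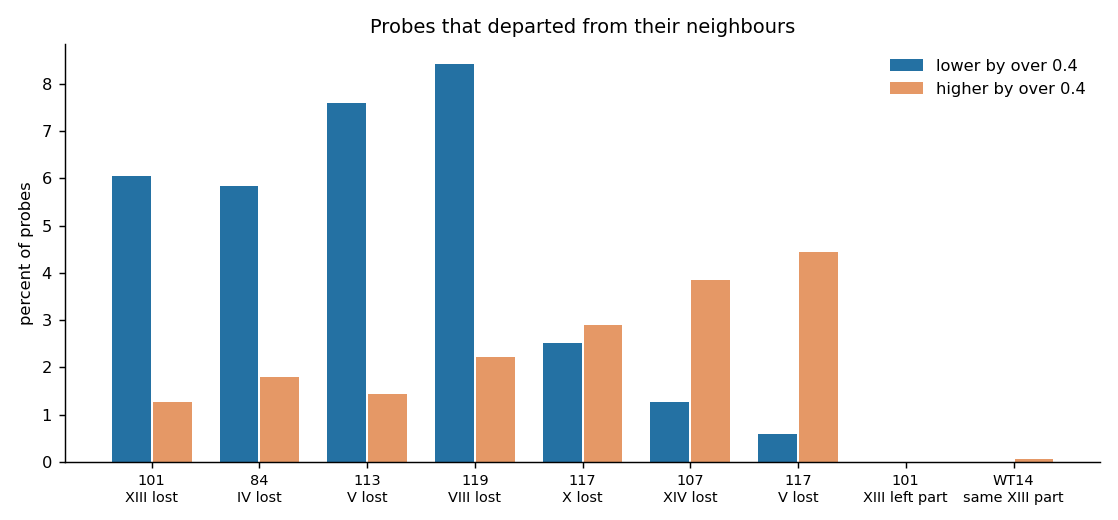
Percent of probes over 0.4 lower (blue) or higher (orange) on the log2 scale than the running median around them, after the median of the other arrays was subtracted, in long losses of 1 array each and in 2 parts without loss. The lost part of XIII in strain 101 has 6.05% low and 1.27% high probes, while the left part of the same chromosome has none.

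Strain 106 also gained part of chromosome IV, from chrIV:295146, which overlaps the gain of strain 101 over 779 probes. Across these probes the deviations of strain 101 from their neighbours correlated with those of strain 106 with r = -0.01 (Spearman's rho = 0.04). Against the 11 other arrays compared, r ranged from -0.15 to 0.17 and rho from -0.13 to 0.20. The value for strain 106 was thus within the range of arrays without that gain. It is a description across probes, which share the WT14 reference and their base composition. In the whole gained part of strain 101, 2 of 2209 probes lay over 0.4 below their neighbours and 9 above. With so few departing probes, the correlation cannot tell whether both gains hold the same parental copy.

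At the right end of chromosome VII, strain 101 gained a short stretch. Its 38 probes, at chrVII:1069099-1076151, had a median of 0.92 and read between 0.61 and 1.31, whereas the median was -0.03 in WT14 and -0.29 (strain 106) to 0.07 (strain 113) in the other TAQed strains. All 38 probes were higher in strain 101 than on every other array, though the stretch was called from these same ratios. The ratio is 1.89-fold, which would be 3.78 copies if WT14 held 2 there. The copies of WT14 at this stretch were not measured. Its Cy3 signal over the stretch was below that of the preceding 20 kb on all 14 arrays, as given below. The 92 probes of the preceding 20 kb stood at -0.09 in strain 101, against 0.00 in WT14 and -0.30 to 0.07 in the other strains in the median. Of these 92 probes, 13 lay outside all other arrays in strain 101. Over all probes the share was 13.8%, but that share includes the gain on IV and the loss on XIII. It is therefore not the share in unchanged parts of the genome.

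The stretch covers most of the MAL1 locus, 1 of several subtelomeric gene clusters for the use of maltose. MAL13, its transcriptional activator, had 0.89 over 10 probes in strain 101, against -0.06 in WT14 and -0.33 to 0.08 in the other TAQed strains. MAL11, its sugar transporter, had 1.01 over 10 probes in strain 101, against 0.01 in WT14 and -0.22 to 0.11 in the others. The left boundary falls within or next to IMA1, an isomaltase gene that stood at -0.08 over 8 probes in strain 101, against 0.00 in WT14. The right boundary falls within MAL12, the maltase gene, with -0.15 over 3 probes in strain 101, against 0.01 in WT14. MAL12 has a near-identical copy, MAL32, at the MAL3 locus on chromosome II, so its value is uncertain.

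Beyond the stretch the remaining 30 probes of chromosome VII stood at 0.39 in strain 101, against 0.17 in WT14 and -0.16 to 0.23 in the other strains. There WT14 itself read high: YRF1-3, a helicase gene of the Y' elements that many chromosome ends share, had 0.65 in strain 101, against 0.86 in WT14. PAU12 had 0.44 in strain 101, against 0.76 in WT14, and COS6 had 0.33 in strain 101, against 0.02 in WT14. These 30 probes fell into 2 segments. The first, 11 probes at chrVII:1077089-1080562, had 0.02 in strain 101 and was not called. The second, 19 probes at chrVII:1080714-1090735, was called with 0.49 in strain 101, against 0.24 in WT14 and -0.13 to 0.42 in the others. Joined to the stretch across the uncalled probes, it formed the called region on chromosome VII of 21.6 kb. That region was called in 12 of the 15 settings.

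A short stretch at the MAL3 locus on chromosome II was lower in strain 101. The 10 probes at chrII:803706-806785 had -0.68 in strain 101, against 0.10 in WT14 and -0.49 (strain 83) to 0.13 in the other TAQed strains, and 6 of the 10 were below every other array. MAL31, the maltose permease gene there, had -0.56 over 10 probes in strain 101, against 0.04 in WT14. MAL31 was lower still in 1 other TAQed strain, at -0.97. This locus was chosen after its values were seen.

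At the right end of chromosome IX, DNA of strain 101 was nearly undetected. The 14 probes at chrIX:434298-437003 read from -8.00 to -2.32 in strain 101 with a median of -7.30, against -0.04 in WT14 and -0.52 (strain 106) to -0.12 (strain 97) in the other TAQed strains. Of the 14 probes, 1 had Cy5 well above background in strain 101, while Cy3, the WT14 DNA on the same array, was well above it at all 14. For the 13 probes without Cy5, only a bound can be given. With Cy5 raised to 25.0, the lowest signal well above background on this array, the median of the bounds was -5.14, so strain 101 was at least 35.3-fold lower than WT14, and the weakest bound was -3.21.

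YIR042C, an uncharacterized gene, is the gene that the stretch contains, with -6.00 over 4 probes in strain 101, against -0.02 in WT14 and -0.57 to -0.10 in the other strains. PAU15 lies across its left boundary and had -0.21 over 1 probe in strain 101, against 0.36 in WT14. The preceding gene, YPS6, an aspartic protease gene of the cell surface, stood at -0.14 over 7 probes in strain 101, against 0.03 in WT14. The last 11 probes of the chromosome were mixed, reading from -4.38 to 0.30 in strain 101. Their median was -1.36 in strain 101, against 0.03 in WT14 and -0.37 to 0.03 in the other strains. The pseudogene YIR043C, which lies there, had -0.31 over 7 probes in strain 101, against 0.16 in WT14. It was within the range of the other TAQed strains, -0.34 to 0.12. YIR043C and the PAU genes have close relatives at other chromosome ends, so their values are uncertain.

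**Figure D4:**
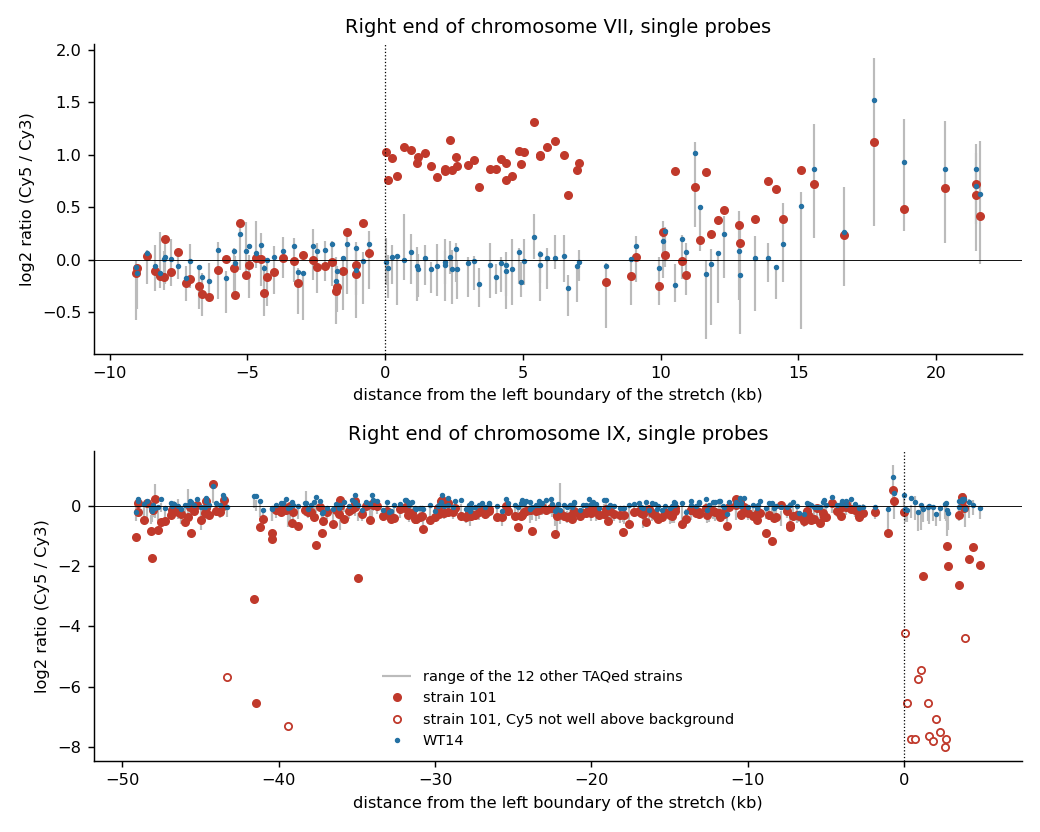
Log2 ratio of single probes at the right ends of chromosomes VII (top) and IX (bottom), against the distance in kb from the left boundary of the stretch, for strain 101 (red, open where Cy5 was not well above background) and WT14 (blue), with the range of the 12 other TAQed strains as grey bars. On VII the 38 probes of the stretch read 0.61 to 1.31 in strain 101, and on IX the 14 probes read -8.00 to -2.32, 13 of them without Cy5 well above background.

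Single probes shifted in the same direction inward of both stretches. On chromosome VII, between 900 kb and the stretch, 24 of 864 probes lay over 0.4 above their neighbours in strain 101 and 4 below, whereas WT14 had 0 in either direction and no other array compared had more than 1 above or 3 below. Over the first 900 kb of the same chromosome strain 101 had 1 above and 1 below among 4412 probes, where other arrays had up to 34 above and 26 below. The shifted probe farthest from the stretch lay at chrVII:930434, 139 kb before the stretch. The median of these 864 probes was 0.01 in strain 101, 0.00 in WT14 and -0.08 to 0.04 in the other strains, so the shift belonged to single probes and not to the level of the arm. Outside its called regions as a whole, strain 101 had 0.108% of probes shifted up and 0.217% shifted down.

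On chromosome IX the shifts ran downward. Between 350 kb and the stretch, 28 of 425 probes lay over 0.4 below their neighbours in strain 101 and 5 above. WT14 had 0 in either direction, and the other arrays compared had at most 1 in either direction. Strain 101 had 0 shifted probes among 1533 between 50 and 350 kb, and 6 below and 0 above among 173 in the first 50 kb, where the other arrays had up to 8 above and 7 below. The group began at chrIX:371195, 63.1 kb before the stretch. Its median level was -0.20 in strain 101, 0.04 in WT14 and -0.34 to -0.03 in the other strains. Strain 101 was therefore within the range of the others in level and apart from them in single probes.

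The lowest of these probes lay around FLO11, the gene of the cell-wall flocculin that yeast needs for invasive growth, and its upstream region, where the noncoding RNA ICR1 is transcribed. A called segment at chrIX:390975-394947 had -0.81 over 12 probes in strain 101, against 0.07 in WT14 and -0.36 to -0.01 in the other TAQed strains. In it, 4 probes read -5.67, -3.09, -6.54 and -7.33 in strain 101, against -0.05, 0.33, 0.32 and -0.08 in WT14, and 4 others read between -0.19 and -0.04 in strain 101. Cy5 was not well above background at the first and the last of the 4 low probes, so their ratios have no defined size. With Cy5 raised to the lowest signal well above background, as on the stretch, the first was at least 42.5-fold and the last at least 36.6-fold lower in strain 101 than in WT14. The 12 probes thus did not move as 1 block, and 7 of them were below every other array. FLO11 as a whole had -0.22 over 14 probes in strain 101, against 0.16 in WT14 and -0.24 to 0.09 in the others. This segment was chosen after its values were seen.

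The WT14 DNA of each array gave a further reading at both ends, since Cy3 was the same strain on all 14 arrays. Over the stretch of chromosome VII, Cy3 was lower than over the preceding 20 kb by 0.83 on the log2 scale on the array of strain 101, by 0.64 on that of WT14 and by 0.60 to 1.03 (strain 81) on the other arrays. Over the stretch of chromosome IX, it was lower by 0.56 on the array of strain 101, by 0.70 on that of WT14 and by 0.65 to 1.098 (strain 81) on the others. Both stretches were dimmer than their flank on 14 of 14 arrays. Of all runs of 38 neighbouring probes, 1.22% were at least 0.5 below the 100 probes before them, and of all runs of 14 probes, 5.5% were. Cy3 also differed slightly between arrays: on that of strain 101 it was lower on VII, where Cy5 was high, than on every other array except that of strain 81, and higher on IX, where Cy5 was nearly absent, than on every other array. The part of the dye signal or of base composition in these levels was not tested.

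**Figure D5:**
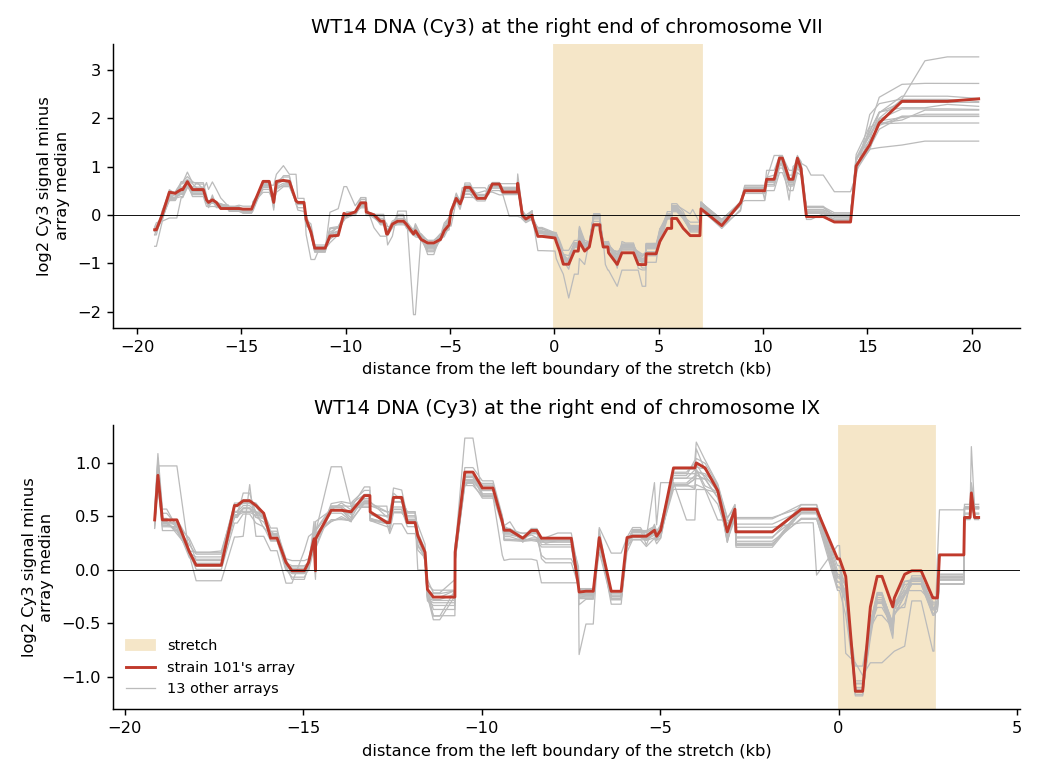
Running median over 7 probes of the log2 Cy3 signal (WT14 DNA) minus the array median, at the right ends of chromosomes VII (top) and IX (bottom), against the distance in kb from the left boundary of the stretch, with the array of strain 101 in red, the 13 other arrays in grey and the stretch shaded. Cy3 over the stretches was lower than over the preceding 20 kb by 0.83 (VII) and 0.56 (IX) on the array of strain 101.

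The remaining called regions of strain 101 lay around the ribosomal DNA on chromosome XII, at levels within the range of the other strains. The region at chrXII:367140-465685, which begins in YLR108C, stood at 0.32 in strain 101, against -0.01 in WT14 and 0.01 (strain 97) to 0.78 (strain 73) in the other TAQed strains. Its last segment, chrXII:451863-465685, was instead low in strain 101, with 0.59 over 18 probes against 1.04 in WT14. There the other TAQed strains had 0.58 (the dim array of strain 81) to 2.02 (strain 119), the second lowest being 1.12 (strain 107). The region at chrXII:489761-576381, which ends between MSC3 and CCC1, stood at 0.34 in strain 101, against -0.02 in WT14 and -0.01 (strain 97) to 0.85 (strain 73) in the others. The 28 probes at chrXII:465647-489730 between them had -0.33 in strain 101, against -0.43 in WT14 and -0.43 to -0.07 in the others. At none of the 3 did strain 101 stand outside the other strains. A gain on chromosome XII was called in 11 of the 15 settings and the loss in 6 of 15.

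Strain 101 had 55 called segments in all, against 23 in WT14 and 11 (strain 81) to 55 (strain 106) in the other TAQed strains, among them 50 in strain 113 and 47 in strain 119. The count fell to 26 with normexp background correction and to 25 with the values of the series matrix. Of these, 3 lay in the gain of chromosome IV, 21 in the loss of XIII, and 31 elsewhere. Of the 31, 7 lay outside the range of the other 13 arrays: the segments on chromosomes II and X, 2 on VII and 3 on IX that are described above. The other 24 were within it, and 18 of those were gains in WT14 against itself as well.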

How the data were processed

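Genomic DNA was hybridized by the authors to an Agilent yeast tiling array (Cy5 strain, Cy3 WT14) and read with Agilent Feature Extraction 11.0.1.1. The deposited scanner files hold processed intensity signals, background-subtracted and dye-normalized by that software. The deposited series matrix holds log10 ratios of 47691 spots per array and served as an alternative. Here log2 of Cy5 over Cy3 was centred on each array's nuclear median, without loess. Control and outlier-flagged spots were left out, spots of 1 probe were averaged, and 23 nuclear probes whose stated span exceeded 100 bases were dropped. Least-squares segments of at least 10 probes were fitted to each chromosome, each added segment costing 10 noise variances times the logarithm of the probe number. Segments past 0.3 were called, and calls of 1 direction under 20 kb apart were joined into regions of at least 20 kb. The segmentation was also run on simulated data with independent noise and at most 1 change per run. These data had neither the trend from chromosome ends nor departing single probes, so they do not bear on the number of segments. Python (numpy 2.4.6, pandas 2.3.3) and, for loess and normexp, limma 3.58.1 were used.

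The strain, its regions and the gene lists were chosen with earlier results of these data known. Named genes hold or flank the boundaries of the regions and right-end stretches, lie in those stretches, or are list members in called regions; those named outside this rule are said to be chosen after their values were seen. Of 224 list members, 215 had a probe and a usable position. With 1 array per strain, the number of arrays limits the precision.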

Additional observations from a re-analysis of the deposited data

Results flagged for a closer look

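Short stretches of very high ratio lay outside the comparisons above and were above the WT14 array. At chrIII:89115-92353, over LEU2, 10 probes of strain 101 had a median of 3.70, against 0.00 in WT14. At chrV:116139-117410, over URA3, 10 probes had 3.50 in strain 101, against 0.10 in WT14. The 4 probes of HIS3 on chromosome XV had 5.33 in strain 101, against 0.08 in WT14. All 3 genes are common selectable markers of yeast vectors. Of the 12 other TAQed strains, 11 were likewise high, the lowest of them at 3.70, 3.50 and 5.38, while strain 83 stood at -0.17, 0.03 and 0.18. No cause was tested.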

How the results depend on the processing

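Of 131 recomputed values of strain 101, 86 changed by less than the spread of the 13 other arrays (their scaled median absolute deviation) or, for counts and percentages, by under 1.5 times, 45 changed by more, and none changed sign. With normexp background correction there were 26 called segments and 3 regions, medians of 0.79 (IV), -0.72 (XIII), 0.69 (VII) and -0.89 (IX), spreads of 1.07 (IV) and 0.72 (XIII), and steps of -0.72 (IV) and -0.80 (XIII). Loess gave medians of -1.03 (XIII) and -7.00 (IX), spreads of 0.36 and 0.47, and a step of -1.03 on XIII. The series matrix gave 25 called segments and -7.09 on IX. With the WT14 ratio subtracted, IX stood at -7.12, the spreads at 0.33 and 0.46 and the step on XIII at -1.06. With Cy3 well above background on all arrays, IX stood at -7.59 and the step on IV at -0.70. Means in place of medians gave -1.12 (XIII) and -6.58 (IX), and centring on chromosomes without regions gave -1.05 (XIII). The 5th to 95th percentiles spanned 0.53 (IV) and 0.78 (XIII). Segments of at least 20 probes left 30 calls. A threshold of 0.2 put 32.6% of probes past it (17.8% at 0.3), and one of 0.4 left 3 regions. Flanks of 10 and 40 kb both gave a step of -1.06 on XIII. Of the alternatives added after the data were seen, removing the trend from chromosome ends gave -1.11 (XIII), 1.05 (VII), -7.17 (IX) and a spread of 0.36 (IV). Subtracting the median of the other arrays gave 0.67 (IV), 1.05 (VII), -7.00 (IX), spreads of 0.22 and 0.40, a step of -1.08 on XIII, 9.88% of probes past the threshold and 2 regions, those on IV and XIII. Why these values moved was not tested.

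Ratios over several log2 units, as on IX, rest on Cy5 near background and have no defined size beyond the bound given. The series matrix gave no mitochondrial value. No paired analysis was possible because strain 101 and WT14 have 1 array each. Strain 101 is 1 clone on 1 array without a dye swap. In its comparison with WT14 alone, which lay on the first slide, slide and strain cannot be told apart. The 7 other strains on its slide had medians of -0.10 to 0.10 (IV) and -0.005 to 0.04 (XIII). At the right-end stretches they had -0.29 to 0.07 (VII) and -0.52 to -0.12 (IX).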
